A study of Mus musculus with 21 samples.

Results

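The respiratory chain of the mouse spinal cord was followed through the mRNAs of its subunits, which come from 2 genomes. Genes were taken by name: every gene of the authors' tables whose symbol begins with mt-, Nduf, Uqcr, Cox followed by 4 to 8, or Atp5, together with the genes named Sdha to Sdhd, without pseudogenes. The names matched 107 identifiers, of which 4 (Ndufa11, Ndufb9, Ndufa6 and Ndufaf7) were absent from the per-library values. The other 103 gave 101 genes, because Uqcrc1 and Ndufs3 were each listed under a second identifier with the same values, out of 25127 identifiers in all. In the authors' deposited table the 4 absent genes changed by between -0.09 and 0.06 (log2) in the cKO against the cHET of either age, with q-values from 0.458 to 0.976. All 101 reached a value of 5 in at least 3 of the 21 libraries. The value nearest to that limit was that of Cox7b2, whose third-highest library stood at 10.7, followed by Cox8b at 16 and Cox4i2 at 49.6. Of these genes, 13 are the mRNAs of the mitochondrial genome and 88 are nuclear. Grouped by symbol, apart from Ndufa4 and Ndufa4l2, which were placed in complex IV, the nuclear genes comprise 33 of complex I, 7 assembly factors of complex I named Ndufaf, 4 of complex II, 8 of complex III, 19 of complex IV and 17 of the ATP synthase. Atp5s and Atp5sl are counted with the ATP synthase by name alone. Among them, 77 encode structural subunits. The rest are the 7 assembly factors, Atp5s and Atp5sl, Cox7a2l (which helps complexes III and IV to associate) and Ndufa4l2 (a relative of the complex IV subunit Ndufa4).

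Complexes I to IV pass electrons from NADH and succinate to oxygen and, apart from complex II, pump protons across the inner mitochondrial membrane, and the ATP synthase uses the returning protons to make ATP. Most subunits are encoded in the nucleus and imported, whereas a core of complexes I, III, IV and the ATP synthase is transcribed inside the organelle from both strands of its own circular DNA as long precursors that are then processed. Oligodendrocytes, the myelin-forming cells of the spinal cord, use the chain during myelination and supply axons with products of glycolysis.

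The study removed Tardbp, which encodes the RNA-binding protein TDP-43, with a Cre recombinase driven by Cnp, a gene of the oligodendrocyte lineage, in C57BL/6 mice. The cKO group was Cnp-Cre; Tardbp-fl/fl, the cHET group was Cnp-Cre; Tardbp-fl/+, and the controls were Tardbp-fl/fl mice without Cre, so that the cKO differs from the cHET in the second floxed allele and from the control in Cre. At P21 each genotype had 4 libraries from mice aged 21 days (2 female and 2 male). At P60 each had 3: the controls were female and 74 days old, the cHET were male and 60, 63 and 65 days old, and the cKO were male and 61, 61 and 64 days old. Whole spinal cord was used, Cre acts in only some of its cells, and in such bulk RNA fewer cells of a type and less RNA per cell cannot be told apart. Libraries were prepared with the Illumina TruSeq RNA kit at P21 and with the NEXTflex Rapid Directional kit at P60, so age and kit cannot be told apart. At P60 genotype, sex and age in days cannot be told apart between cKO and control or between cHET and control.

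Values are the deposited reads per base of each gene, scaled by the authors within each age, and are therefore comparable between genes of 1 library. The sum per library was 26.9 to 29.2 M at P21 and 12.5 to 13.8 M at P60. A change is the difference of the mean log2(value + 0.5), with its standard error (SE), and a gene was called where the Benjamini-Hochberg adjusted p of limma, over all genes tested at that age, was under 0.05. Comparisons within an age share libraries: both comparisons of the cKO use the same cKO libraries. Tardbp itself was 2198, 2283, 2415 and 2155 in the P21 controls, 2068, 2236, 2030 and 2231 in the cHET and 1731, 1880, 1753 and 1639 in the cKO, which lay below every other library. It fell by 0.29 against the cHET (limma, adjusted p = 0.00249) and by 0.37 against the control (limma, adjusted p = 0.000326). At P60 Tardbp was 828, 884 and 937 in the controls, 925, 932 and 906 in the cHET and 831, 794 and 783 in the cKO. There it fell by 0.20 against the cHET (limma, adjusted p = 0.0397), and its difference from the control, -0.14, was not called (limma, adjusted p = 0.142). The groups also differed in the mRNAs of cell type markers. In the P21 cKO against cHET 9 of 11 markers of microglia and macrophages and 6 of 8 of astrocytes rose. Of mature oligodendrocytes 8 of 12 markers fell, and of neurons 11 of 16. At P60 the same counts were 9 of 11, 4 of 8, 10 of 12 and 6 of 16. Some markers were called the other way. Of the microglial list 1 fell at P21 and 2 at P60, and of the oligodendrocyte list 2 rose at each age. Of all genes tested in these comparisons, 12.6% were called higher and 9.97% lower at P21, and 13.4% and 11.5% at P60. Summed values of the microglial list were 45751 to 60520 in the P21 cKO and 11417 to 13211 in the cHET, and those of the oligodendrocyte list were 1794030 to 2109770 and 2375730 to 2656580. The part of these shifts in the results below was not tested.

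Sequences from both genomes show where the genes of the results below differ. The first set are coding sequences of the mitochondrial genome (GENCODE M21, GRCm38, all on the + strand), shown because the 3 shortest genes behaved differently at P60. mt-Atp8 (subunit 8 of the ATP synthase) lies at chrM:7766-7969 and its capitals mark the 43 bases that it shares with mt-Atp6. mt-Nd4l (complex I) lies at chrM:9877-10173 and its capitals mark the 7 bases shared with mt-Nd4. Of mt-Nd3 (complex I) the first 300 bases are printed, at chrM:9459-9758.
mt-Atp8: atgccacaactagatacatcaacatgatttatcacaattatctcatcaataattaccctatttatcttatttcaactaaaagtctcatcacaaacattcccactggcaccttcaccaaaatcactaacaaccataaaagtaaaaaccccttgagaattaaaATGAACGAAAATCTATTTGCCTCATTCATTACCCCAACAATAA
mt-Nd3: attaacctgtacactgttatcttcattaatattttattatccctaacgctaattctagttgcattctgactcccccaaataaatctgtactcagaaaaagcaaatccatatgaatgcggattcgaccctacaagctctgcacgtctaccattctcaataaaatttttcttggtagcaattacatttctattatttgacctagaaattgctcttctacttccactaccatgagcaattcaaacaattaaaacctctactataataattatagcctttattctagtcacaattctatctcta
mt-Nd4l: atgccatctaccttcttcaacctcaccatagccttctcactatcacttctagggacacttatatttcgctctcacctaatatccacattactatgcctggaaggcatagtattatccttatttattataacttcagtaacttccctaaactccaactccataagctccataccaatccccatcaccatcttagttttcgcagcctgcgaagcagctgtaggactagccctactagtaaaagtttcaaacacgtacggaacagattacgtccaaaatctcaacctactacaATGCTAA
The GC content of the whole genes is 31.9% for mt-Atp8, 33.1% for mt-Nd3 and 41.1% for mt-Nd4l, the lowest, the second lowest and the highest of the 13.

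The second set are nuclear promoters (RefSeq, GRCm38.p6, 250 bases before to 50 after the start). Those of Cox6b1 and Cox6b2 belong to an isoform pair of which only Cox6b2 was called. Those of Ndufaf4 and Ndufaf5 belong to complex I assembly factors that fell at P21, as did Ndufaf2, whose promoter is not printed. Cox6b1 lies at chr7:30626065-30626364 (− strand), with a match to the ETS family motif CCGGAAG (on the other strand) in capitals, and Cox6b2 at chr7:4753045-4753344 (− strand), with no match to any of 5 motifs searched. Ndufaf4 lies at chr4:24897833-24898132 (+ strand) and Ndufaf5 at chr2:140170396-140170695 (+ strand), with matches to the NRF1 motif GCGCATGC in capitals, where the longer stretches match on both strands.
Cox6b1: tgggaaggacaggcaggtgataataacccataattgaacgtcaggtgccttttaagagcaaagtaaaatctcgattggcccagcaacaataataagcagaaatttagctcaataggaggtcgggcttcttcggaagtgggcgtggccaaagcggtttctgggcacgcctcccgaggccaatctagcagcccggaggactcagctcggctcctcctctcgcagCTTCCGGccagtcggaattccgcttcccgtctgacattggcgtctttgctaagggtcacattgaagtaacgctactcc
Cox6b2: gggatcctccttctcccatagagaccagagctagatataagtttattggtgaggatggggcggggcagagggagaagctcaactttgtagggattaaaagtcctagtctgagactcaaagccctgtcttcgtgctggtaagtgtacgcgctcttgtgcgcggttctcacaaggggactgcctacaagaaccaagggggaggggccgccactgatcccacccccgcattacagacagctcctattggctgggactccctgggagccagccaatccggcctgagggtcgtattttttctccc
Ndufaf4: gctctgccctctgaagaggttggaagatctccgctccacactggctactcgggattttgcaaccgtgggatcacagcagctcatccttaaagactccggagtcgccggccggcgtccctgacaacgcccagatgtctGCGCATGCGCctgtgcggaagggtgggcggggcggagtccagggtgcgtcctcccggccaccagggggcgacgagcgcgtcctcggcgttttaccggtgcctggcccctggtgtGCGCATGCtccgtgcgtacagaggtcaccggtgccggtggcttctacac
Ndufaf5: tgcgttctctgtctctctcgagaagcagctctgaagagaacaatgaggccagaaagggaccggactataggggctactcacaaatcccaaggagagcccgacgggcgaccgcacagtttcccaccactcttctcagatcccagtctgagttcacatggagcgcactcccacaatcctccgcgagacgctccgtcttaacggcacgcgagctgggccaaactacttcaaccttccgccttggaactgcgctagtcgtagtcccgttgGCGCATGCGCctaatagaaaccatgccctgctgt
Promoters were matched for 74 of the 88 nuclear members and searched on both strands for motifs of factors linked to respiratory genes. The NRF1 motif was present in 10 of the 74 (13.5%) against 2.81% of all 27025 promoters, and the ETS motif in 17 (23.0%) against 9.12%. The YY1 motif AAGATGGCG was present in 8 (10.8%) against 1.5%, the ERR motif TCAAGGTCA in 2 (2.70%) against 0.407%, and the CREB motif TGACGTCA in 3 (4.05%) against 1.88%. The end of the ETS motif and the start of the YY1 motif share AAG, and the CREB and ERR motifs can share TCA, so 1 stretch can match a pair of motifs. A match is a description of the sequence only.

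The 13 mRNAs of the mitochondrial genome made up a larger and more variable share of the values at P60 than at P21, whereas the share of the nuclear subunits was similar in all 21 libraries. At P21 the mitochondrial share was 6.49, 6.80, 7.02 and 6.94% in the controls, 6.40, 6.40, 6.57 and 7.53% in the cHET and 6.61, 7.58, 7.69 and 8.12% in the cKO. At P60 it was 16.1, 10.2 and 13.1% in the controls, 11.6, 11.4 and 16.2% in the cHET and 17.8, 17.9 and 14.6% in the cKO. The cKO had the highest mean at both ages, 7.5% ± 0.638 (SD, n = 4) and 16.8% ± 1.92 (SD, n = 3), but it overlapped with both other groups each time. The 77 nuclear structural subunits held between 0.912% and 1.22% of the values of every library.

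At P60 the ratio of mitochondrial to nuclear subunit mRNA mostly followed the mitochondrial share. At P21 it did not. There cKO 4 had the highest mitochondrial share, 8.12%, and also the highest nuclear share, 1.22%, and its ratio was 6.66. Control 2, with shares of 6.80% and 0.980%, had a ratio of 6.94. The ratio was 6.58 ± 0.383 in the P21 controls, 6.29 ± 0.25 in the cHET and 7.01 ± 0.492 in the cKO (SD, n = 4 each). At P60 it was 16.6, 9.41 and 12.3 in the controls, 10.9, 11.9 and 17.8 in the cHET and 17.8, 19.5 and 15.1 in the cKO. On the log2 scale the cKO exceeded the cHET by 0.16 at P21 and by 0.40 at P60, with pooled SDs of 0.08 and 0.30, and exceeded the control by 0.09 and 0.48, with pooled SDs of 0.09 and 0.32. The ratio of sums is set by the most abundant genes, whereas in a difference of mean log2 values every gene counts equally. By that difference the P60 cKO exceeded the control by 0.90 and the cHET by 0.52. The cHET exceeded the control by 0.38 (0.09 as a ratio of sums). The genes mt-Nd3 and mt-Atp8 weighed most: they were 3.13 and 3.02 higher in the cKO than in the control. In the cHET they were 2.27 and 1.35 higher than in the control. The median change of the 13 mitochondrial genes was 0.58 and 0.09 in these comparisons. Both mt-Nd3 and mt-Atp8 were lowest in P60 control 2. Its difference of mean log2 values was 4.55, beside 6.08 and 5.44 in controls 1 and 3. In the ratio of sums all these groups overlapped, and a single P60 library could move it: the P60 difference between cKO and cHET ranged from 0.26 to 0.61 and that between cKO and control from 0.28 to 0.69 when 1 library was left out.

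**Figure D1:**
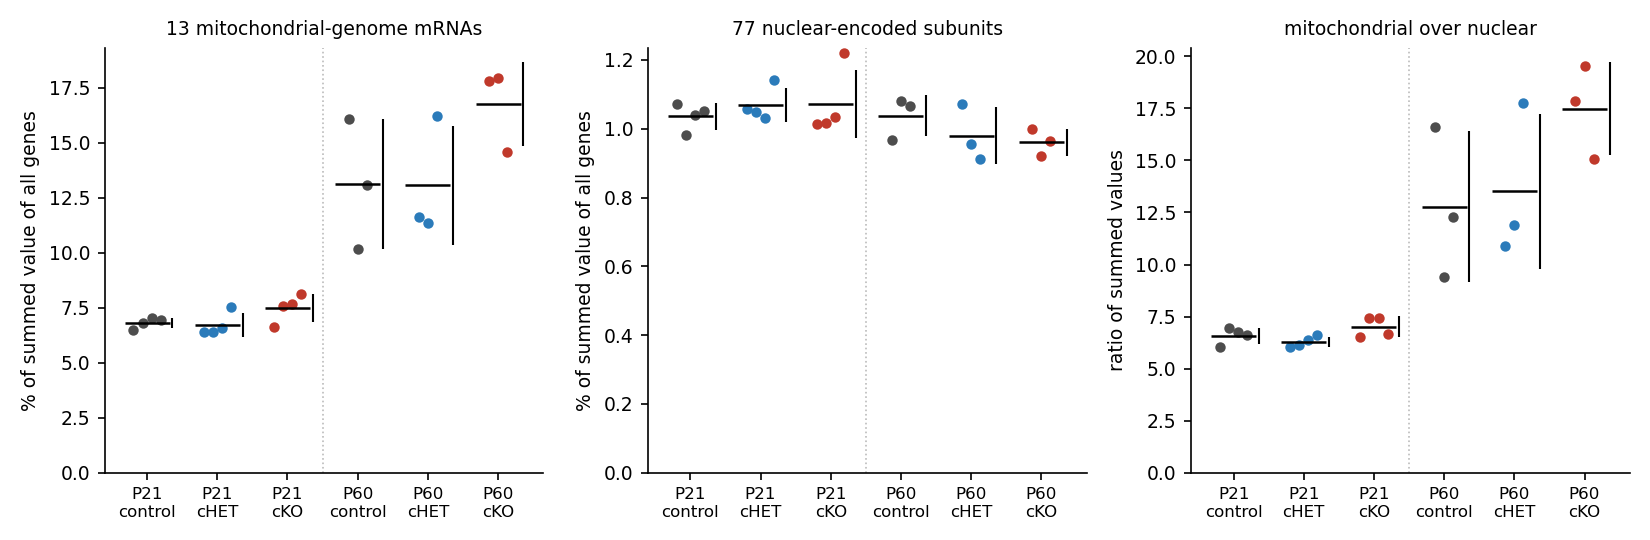
Share of all values (%) held by the 13 mitochondrial mRNAs and by the 77 nuclear structural subunits, and the ratio of the former to the latter, for each of 21 libraries by group. Points are libraries, bars are group means and lines are the SD. The nuclear share stays between 0.912 and 1.22%, whereas the P60 mitochondrial share spans 10.2 to 17.9%.

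The spread of the mitochondrial genes at P60 was uneven, and it followed base composition. Over the 12 P21 libraries the highest value of a mitochondrial gene was between 1.27 times (mt-Nd4) and 1.48 times (mt-Nd5 and mt-Nd3) the lowest. Over the 9 P60 libraries the same quotient was 341 for mt-Atp8, 38.9 for mt-Nd3 and 4.19 for mt-Nd6, the 3 genes of lowest GC content, but 1.36 for mt-Nd4l, 1.46 for mt-Co1 and 1.55 for mt-Cytb, which have 41.1, 39.9 and 39.1% GC. It was 3.35 for mt-Nd2, 2.80 for mt-Nd4, 2.70 for mt-Atp6, 2.27 for mt-Nd1, 2.03 for mt-Co2, 1.75 for mt-Co3 and 1.66 for mt-Nd5. The lowest P60 values of mt-Atp8 and mt-Nd3 were those of control 2, so the size of their quotients depends on that library. There mt-Atp8 was 0.000967% of mt-Atp6, beside 0.0331% to 0.148% in the other P60 libraries. Spearman's rho between GC content and this quotient over the 13 genes was -0.96 at P60 and -0.51 at P21, and that between length and the quotient was -0.44 and -0.24. The genes share libraries and a precursor, so these are descriptions. Both mt-Atp8, 204 bases long, and mt-Nd4l, 297 bases long, are short, but mt-Atp8 had the widest and mt-Nd4l the narrowest P60 spread of the 13.

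**Figure D2:**
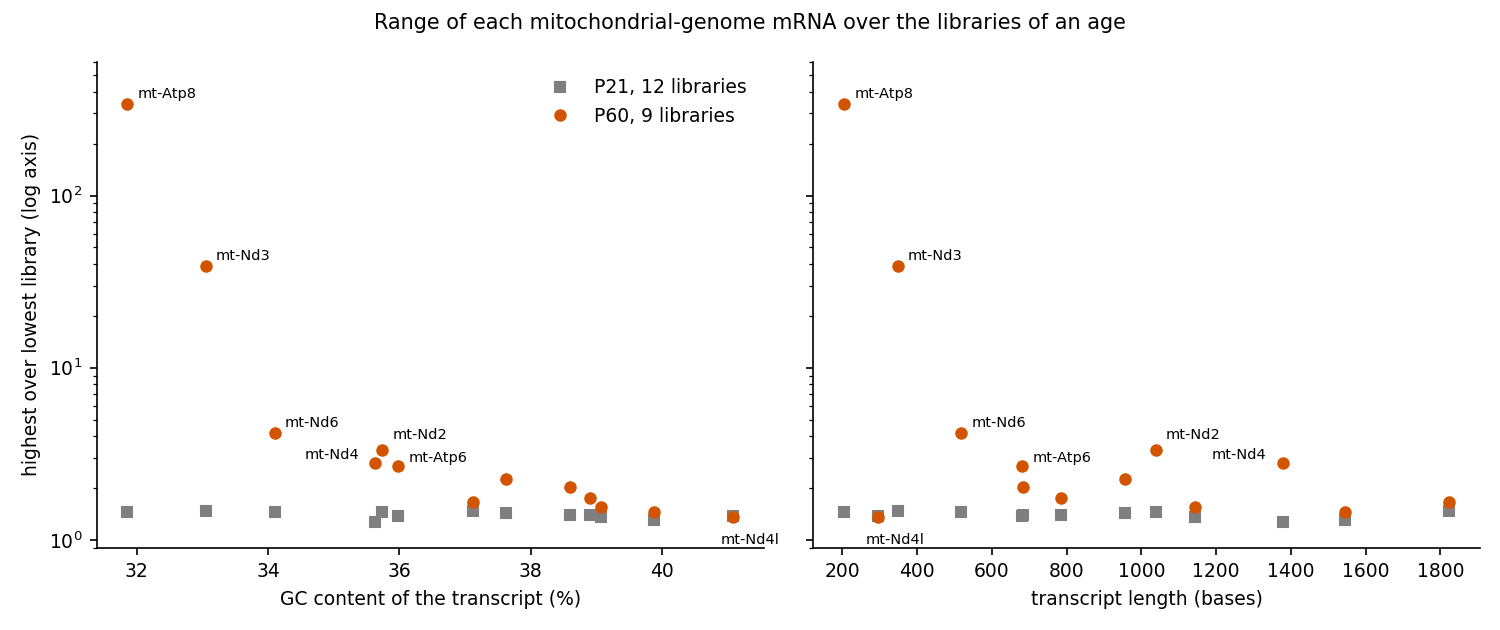
Highest over lowest library (log axis) of each of the 13 mitochondrial genes, plotted against GC content (%) and against length (bases), over the 12 P21 and the 9 P60 libraries. At P60 the quotient reaches 341 for mt-Atp8 (31.9% GC) and is 1.36 for mt-Nd4l (41.1% GC), whereas no gene exceeds 1.48 at P21. The lowest P60 value of mt-Atp8 is that of control 2.

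Nuclear genes of low GC content also varied between the P60 libraries. The median deviation of 652 other protein-coding genes with under 40% GC from their P60 mean was 0.11, -0.12 and -0.03 (log2) in the 3 controls, -0.12, -0.07 and 0.15 in the cHET and 0.04, 0.01 and 0.05 in the cKO. The 2 libraries with the highest values, control 1 and cHET 3, also had the highest mitochondrial share of their groups. In the cKO it was the other way. There cKO 3 had the highest value but the lowest mitochondrial share (14.6%), and cKO 2 the lowest value but the highest share (17.9%). The part of base composition in the mitochondrial values was not tested. Annotated nuclear copies of mitochondrial DNA can share reads with the mitochondrial genes, and none was called between cKO and cHET, of 5 tested at P21 and 6 at P60 (limma, 2 at an unadjusted p under 0.05 at each age). Their median change at P60 was 0.53, the same as that of the 13 mitochondrial genes, and their summed values were 175055 to 207864 in the P60 cKO, above every cHET library (129907 to 173340), and 133743 to 194956 in the control.

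Per gene, mt-Nd5, mt-Atp8 and mt-Nd6 rose in the P21 cKO against the cHET. mt-Nd5 (complex I) was 117677, 151464, 145389 and 141864 in the cKO and 102178, 107162, 119849 and 122338 in the cHET. 3 of the 4 cKO libraries were above every cHET library, and the fourth lay inside their range. Its change was 0.30 (SE 0.09, limma, adjusted p = 0.0256), and quantile normalization turned it to -0.027. mt-Atp8 was 10733, 13307, 12858 and 14048 against 9649, 10383, 9814 and 11738, a change of 0.29 (limma, adjusted p = 0.0321). mt-Nd6, the only one of the 13 transcribed from the other strand, was 32798, 41034, 39766 and 44120 against 30360, 30318, 32088 and 37515, a change of 0.27 (limma, adjusted p = 0.0384). In all 3 genes cKO 1 was within the range of the cHET, as was cHET 4 within that of the cKO. None of the 3 calls held when cHET 1, cHET 2, cKO 2 or cKO 3 was left out or when genes of low value were not filtered, and quantile normalization ended those of mt-Nd5 and mt-Nd6.

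All 13 mitochondrial genes had a positive change in that comparison, from 0.03 to 0.30 with a median of 0.12, beside a median of -0.01 over all 17989 genes tested. The 3 calls are 3 of 13, where 12.6% of all genes tested were called higher and 9.97% lower. Against the control only mt-Nd6 rose, by 0.28 (limma, adjusted p = 0.032), with a median of 0.14 over the 13, and 14.6% and 12.3% of all genes were called higher and lower. That call was lost without control 1, 3 or 4 or cKO 2, 3 or 4. Between cHET and control no member of either genome was called at P21 (limma, 6 at an unadjusted p under 0.05), where 0.0111% of all genes were. The median of the 13 was 0.00 there.

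At P60 the changes of mitochondrial genes were larger but so was their error. mt-Nd4 (complex I) was 251313, 118859 and 183948 in the controls, 159964, 155788 and 272612 in the cHET and 320727, 332431 and 252980 in the cKO. cHET 3 lay above the lowest cKO library. mt-Nd6 was 59479, 19447 and 38765, then 32071, 32108 and 66418, then 81447, 78468 and 61646, with cHET 3 again inside the cKO range. As a share of mt-Nd5, from the opposite strand, mt-Nd6 varied from 16.7% to 44.4% over the P60 libraries and from 25.7% to 31.1% over the P21 libraries. Its group means in the order control, cHET and cKO were 27.4, 29.1 and 41.4% at P60 and 27.1, 28.9 and 28.4% at P21. The P60 kit is named directional and the P21 kit is not, and the part of the kit in this share was not tested. Against the cHET 12 of 13 changes were positive, from -0.03 to 1.66 with a median of 0.53, SEs reached 1.53, and none was called (limma, 4 at an unadjusted p under 0.05). Without cHET 3, which had the highest mitochondrial share of its group (16.2%), 4 of them rose: mt-Atp6, mt-Nd1, mt-Nd4 and mt-Nd6.

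Against the P60 control 1 gene rose by limma, mt-Nd3, and the authors' deposited table also calls mt-Nd5 higher. Its values were 688, 103 and 361 in the controls, 1163, 918 and 2701 in the cHET and 3189, 4022 and 1338 in the cKO. Every cHET and cKO library, all male, was above every control library, all female. The change of the cKO was 3.13 (SE 0.64, limma, adjusted p = 0.00447), and that of the cHET, which missed the threshold, was 2.27 (limma, adjusted p = 0.693). At P21 the same gene was 12604 to 15253 in the controls and 12050 to 17425 in the cKO, and its change differed between the ages by 2.97 (limma, adjusted p = 0.00739). All 13 changes against the P60 control were positive with a median of 0.58 (8 at an unadjusted p under 0.05). Without control 1, 9 of the 13 were called higher, and without cHET 3, which only shares the error estimate, 4 were. Control 1 and cHET 3 had the highest mitochondrial shares of their groups, 16.1% and 16.2%. mt-Atp8 was 372, 1.09 and 79.7 in the P60 controls and 359, 337 and 207 in the cKO, and was not called.

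The nuclear subunits changed little at P21. Of the 77 structural subunits, 0 were called between cKO and cHET (limma, 4 at an unadjusted p under 0.05), 72 had a change within ±0.25, and the median was -0.04. SEs ran from 0.05 to 0.56 with a median of 0.08. Of all genes tested in that comparison, 12.6% were called higher and 9.97% lower. Of the 101 members 4 had groups without overlap, where 22.6% of all genes tested had groups without overlap. Against the control 5 of 77 rose and 2 fell, with a median of 0.04, where 14.6% of all genes were called higher and 12.3% lower. Short nuclear genes (up to 1000 bases, 423 other genes at P21) stood 0.19 higher at the median in the cKO than in the control and 0.10 higher in the cHET than in the control, and the 40 nuclear members of that length were 0.07 and 0.10 higher. That shift was largest in cKO 4, at 0.24, which also had the most nuclear subunit mRNA of its group. Without cKO 4, 12 members were called between cKO and cHET, of which 11 fell.

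The nuclear members that fell in the P21 cKO against the cHET were 3 assembly factors of complex I. Ndufaf4, an early assembly factor, was 1061, 1209, 1281 and 1339 in the cKO, 1500, 1496, 1436 and 1454 in the cHET and 1447, 1493, 1663 and 1362 in the control. All cKO libraries were below all others. Ndufaf4 fell by 0.27 against the cHET (SE 0.08, limma, adjusted p = 0.019) and by 0.29 against the control (limma, adjusted p = 0.0119). Ndufaf5, a methyltransferase-like factor that modifies a complex I subunit, was 966, 965, 1063 and 1052 in the cKO, 1130, 1172, 1243 and 1215 in the cHET and 1266, 1200, 1088 and 1143 in the control, again without overlap. It fell by 0.23 (limma, adjusted p = 0.0156) and by 0.21 (limma, adjusted p = 0.0219). Ndufaf2, a late assembly factor, was 542, 559, 700 and 657 against 702, 725, 707 and 773 in the cHET, without overlap, and fell by 0.25 (limma, adjusted p = 0.0462). It overlapped with the control, at 634 to 693. The call of Ndufaf4 against the cHET was lost without cKO 1 (adjusted p = 0.0531 with limma), that of Ndufaf5 without cHET 3 or cKO 2, and that of Ndufaf2 when any of 10 libraries was left out. The promoters of Ndufaf4 and Ndufaf5 printed above hold 2 and 1 stretches that match NRF1, and 8 of the 65 structural subunits with a promoter hold one too. That of Ndufaf2, which also fell, matched none of the motifs searched.

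The 3 are 3 of the 7 assembly factors named Ndufaf, where 9.97% of all genes tested were called lower. The other 4, Ndufaf1, Ndufaf3, Ndufaf6 and Ndufaf8, were not called. At P60 none of the 7 was called by limma (1 at an unadjusted p under 0.05 against the cHET and 2 against the control). The authors' deposited table calls 1 of them, Ndufaf2, against the control (-0.37, q = 0.0165), where limma gave -0.31 (adjusted p = 0.0569), and with quantile normalization limma called Ndufaf2, Ndufaf3 and Ndufaf6 lower in that comparison. Ndufaf4 was 455, 367 and 483 in the P60 cKO and 397, 373 and 438 in the cHET, which overlap. Ndufaf5 was 399, 420 and 444 against 456, 446 and 456, without overlap but also without a call. The difference between the ages was not called for any of them.

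Within complex I itself 1 of 33 subunits was called at each age, in different comparisons. At P21 it was called against the control, where 14.6% of all genes tested were called higher and 12.3% lower. At P60 it was called against the cHET, where 13.4% were called higher and 11.5% lower. Ndufa7, an accessory subunit, was 1252, 1342, 1396 and 1588 in the P21 cKO, 1247, 1109, 1091 and 1131 in the control and 1294, 1255, 1245 and 1336 in the cHET. The cKO and the control did not overlap, and the change was 0.28 (SE 0.07, limma, adjusted p = 0.00987). The cHET libraries lay inside the cKO range or just under it. Ndufb6, an accessory subunit of the membrane arm, was 418, 393 and 421 in the P60 cKO against 339, 335 and 345 in the cHET, without overlap, and rose by 0.27 (limma, adjusted p = 0.0345). The controls, at 409, 338 and 398, overlapped with both, and that call was lost when any of the 6 cKO or cHET libraries was left out.

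Complexes II and III each moved in 1 or 2 genes against the P21 control, where 14.6% of all genes tested were called higher and 12.3% lower. Sdha, the flavoprotein subunit of succinate dehydrogenase, was 2262, 2452, 2591 and 2453 in the cKO and 2915, 2721, 2800 and 2622 in the control, and fell by 0.18 (limma, adjusted p = 0.034). Uqcrc2, a core protein of complex III, was 2305, 2506, 2478 and 2529 against 2898, 2660, 2953 and 2586, and fell by 0.18 (limma, adjusted p = 0.04). Uqcr11, a small subunit of the same complex, was 3408, 3872, 4090 and 4658 against 3399, 3245, 3339 and 3302, and rose by 0.26 (limma, adjusted p = 0.0271). None of the 3 overlapped with the control, and the 2 of complex III moved in opposite directions. In that comparison 9 of the 101 members had groups without overlap, where 4937 of all 17989 genes tested had. In the cHET Uqcr11 was 4086, 3459, 3505 and 3675, also above every control. These 3 calls were each lost when 1 of 5 or 6 libraries was left out.

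The largest changes among the nuclear genes called were those of complex IV subunits at P60 and of Cox6a2 at P21. Cox5b, a zinc-binding subunit at chr1:36691449-36693681 (+ strand, GENCODE M21, GRCm38), was 957, 910 and 911 in the P60 cKO, 756, 536 and 660 in the cHET and 606, 611 and 740 in the control, and every cKO library was above every other. It rose by 0.52 (SE 0.12, limma, adjusted p = 0.00783) and by 0.51 (limma, adjusted p = 0.0089). In the authors' deposited table, whose mean for Cox5b differs from that of the per-library values, the same changes were 0.30 (q = 8.7e-05) and 0.17 (q = 0.0458), so the call holds but the size does not. Cox7a2l was 5169, 5053, 4885 and 6130 in the P21 cKO and 4756, 4442, 4484 and 4708 in the control, without overlap, and rose by 0.20 (limma, adjusted p = 0.0345). That call was lost without control 2, 3 or 4 or cKO 4.

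Subunits with tissue isoforms were compared in pairs, and the minor isoforms Cox6a2 and Cox6b2 rose. Cox6a2, at chr7:128205435-128206387 (− strand, GENCODE M21, GRCm38), is the form of heart and skeletal muscle, and Cox6a1 the form of most other tissues. Cox6a2 was 44.8, 32.7, 32.3 and 42.7 in the P21 controls, 117, 72.4, 106 and 43.2 in the cHET and 154, 122, 89.0 and 132 in the cKO. At P60 it was 7.12, 4.37 and 8.97, then 12.9, 10.3 and 14.4, then 40.1, 24.9 and 19.4. The cKO and the control did not overlap at either age, and at P60 the 3 genotypes were in order without overlap. The change against the control was 1.68 at P21 (SE 0.28, limma, adjusted p = 0.000416) and 1.96 at P60 (SE 0.36, limma, adjusted p = 0.00227). Against the cHET it was 0.62 at P21 (limma, adjusted p = 0.132) and 1.08 at P60 (limma, adjusted p = 0.0501), neither of which passed the threshold. The cHET differed from the control by 1.06 at P21 (limma, adjusted p = 0.435), and that difference was called once cHET 4 was left out. Even so, Cox6a2 amounted to 1.09% of Cox6a1 in the P21 cKO and 0.373% in the control on average.

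Muscle markers were read beside Cox6a2. Against the control 1 of 8 tested rose at P21 and 1 of 5 at P60, Tnni2 each time. Of all genes tested, 14.6% and 14.5% were called higher there. Tnni2 was 31.1 to 60.1 in the P21 cKO, 1.73 to 10.5 in the control and 3.14 to 14.2 in the cHET. At P60 it was 11.1 to 22.1 in the cKO, 1.45 to 3.42 in the control and 0.739 to 1.81 in the cHET. Its change against the control was 3.46 at P21 (limma, adjusted p = 0.000341) and 2.75 at P60 (limma, adjusted p = 0.00312). The summed list was 2085 to 2692 in the P21 cKO and 2098 to 2912 in the control, of which Pvalb, also a neuronal gene, held most. Without Pvalb the sum was 153 to 192 and 111 to 223. Of the 10 markers present, Pvalb, Actn3, Myh1, Acta1, Ckm and Tnni2 were at 0 in no library, Tnnt3 and Myl1 in 2 each, Myh2 in 4 and Myh4 in 15 of the 21. Over all libraries Actn3 was 19.6 to 67.5 and Myh1 2.93 to 93.5. The part of muscle RNA in the values of Cox6a2 was not tested.

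Cox6b2, the testis form beside the general Cox6b1, rose at P60. It was 58.3, 66.3 and 44.2 in the P60 cKO, 21.9, 25.0 and 36.1 in the cHET and 25.9, 21.7 and 34.9 in the control, without overlap. Its change was 1.02 against the cHET (SE 0.26, limma, adjusted p = 0.0138) and 1.03 against the control (limma, adjusted p = 0.0131), and both calls were lost without cKO 2, the first also without cHET 1 and the second without control 2. At P21 it was 91.2, 78.4, 73.4 and 119 in the cKO and 95.4, 107, 104 and 127 in the control. The difference between the ages was 1.30 (limma, adjusted p = 0.0259) against the control and was lost without any of 6 libraries, both P21 ones (control 4 and cKO 2) and P60 ones (controls 1 and 2, cKO 1 and 2). Cox6b2 was 2.61% of Cox6b1 in the P60 cKO and 1.37% in the control.

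The other pairs were not called. Cox4i2, the oxygen-responsive form of Cox4i1, was 0.341% of it in the P60 cKO and 0.191% in the cHET, a change of 0.79 (limma, adjusted p = 0.0983) without overlap. Cox8b, which pairs with Cox8a, was -0.57 at P21 and -0.96 at P60 against the cHET, with overlap. Cox7a1, the muscle form beside Cox7a2, was 4.16% of it in the P21 cKO and 3.70% in the control, and Ndufa4l2 was 1.59% and 1.89% of Ndufa4.

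**Figure D3:**
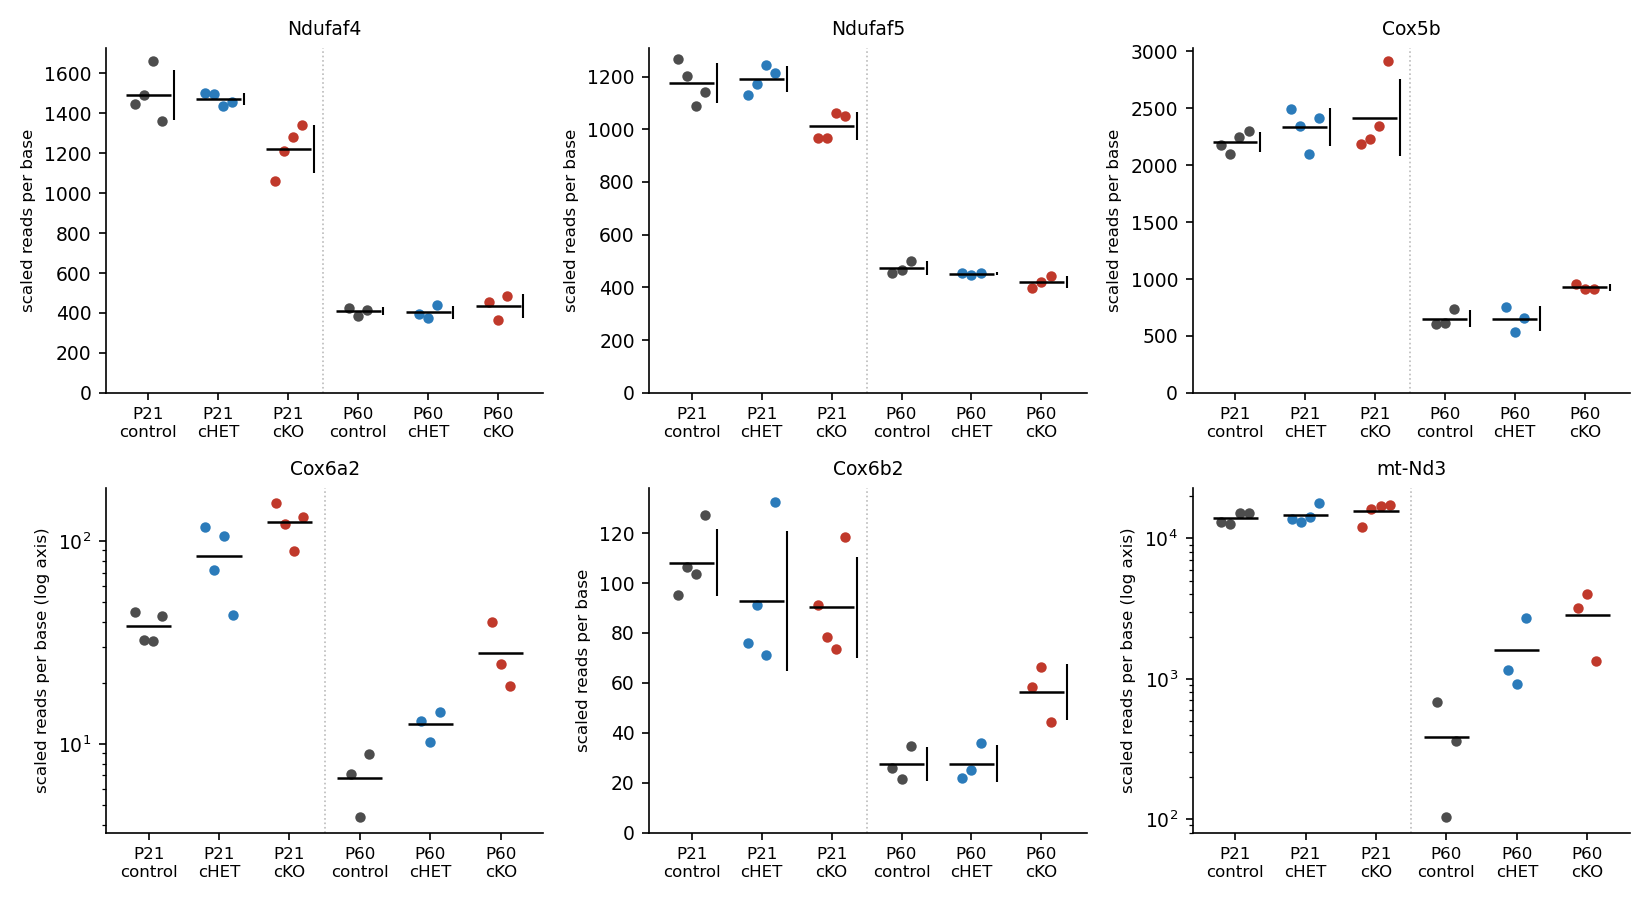
Values of Ndufaf4, Ndufaf5, Cox5b, Cox6a2, Cox6b2 and mt-Nd3 in each of the 21 libraries by group (deposited reads per base, log axis for Cox6a2 and mt-Nd3). Points are libraries, bars are group means and lines are the SD, which is not drawn on the log axes. Ndufaf4 is lowest in the P21 cKO, whereas Cox5b and Cox6b2 are highest in the P60 cKO.

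The ATP synthase moved in a few small subunits. Atp5e, a subunit of the central stalk, was 2950, 3262, 3647 and 3661 in the P21 cKO and 2890, 2734, 2823 and 2954 in the control, which overlap by 1 library, and rose by 0.24 (limma, adjusted p = 0.0181). Atp5l, a membrane subunit, was 2715, 2854, 2883 and 3574 against 2694, 2542, 2569 and 2532, without overlap, and rose by 0.21 (limma, adjusted p = 0.0465). Atp5s, which is not a structural subunit, was 295, 356, 423 and 279 against 382, 473, 436 and 462, with overlap, and fell by 0.39 (limma, adjusted p = 0.0363). At P60 Atp5j, a subunit of the peripheral stalk, was 1784, 1610 and 1619 in the cKO and 1529, 1436 and 1415 in the cHET, without overlap, and rose by 0.19 (limma, adjusted p = 0.0382). Single libraries decided these calls: that of Atp5e was lost without either of 2 libraries (control 2 or cKO 3), that of Atp5s without any of 5, that of Atp5l without any of 11 and that of Atp5j without any of 6.

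Over all nuclear members of the P60 cKO against the cHET, 4 rose and 0 fell: Atp5j, Ndufb6, Cox5b and Cox6b2. The structural median was 0.03. Of all 16833 genes tested, 13.4% were called higher and 11.5% lower. Of the 100 members tested (Cox7b2 was not) 15 had groups without overlap, where 39.5% of all genes had. Against the control the nuclear genes called were Cox5b, Cox6a2 and Cox6b2, all higher, where 14.5% of all genes were higher and 11.4% lower, and the structural median was -0.03. In that comparison 19 of the 100 members had groups without overlap, where 6862 of all 16833 genes had. Without cHET 3, 9 members were called against the cHET, and without control 1, 13 against the control. Between P60 cHET and control no member was called (limma, 7 at an unadjusted p under 0.05), where 0.0178% of all genes were. At P21 11 members had cHET values above every control value without a call, Atp5e and Uqcr11 among them, where 5.13% of all genes had groups without overlap.

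**Figure D4:**
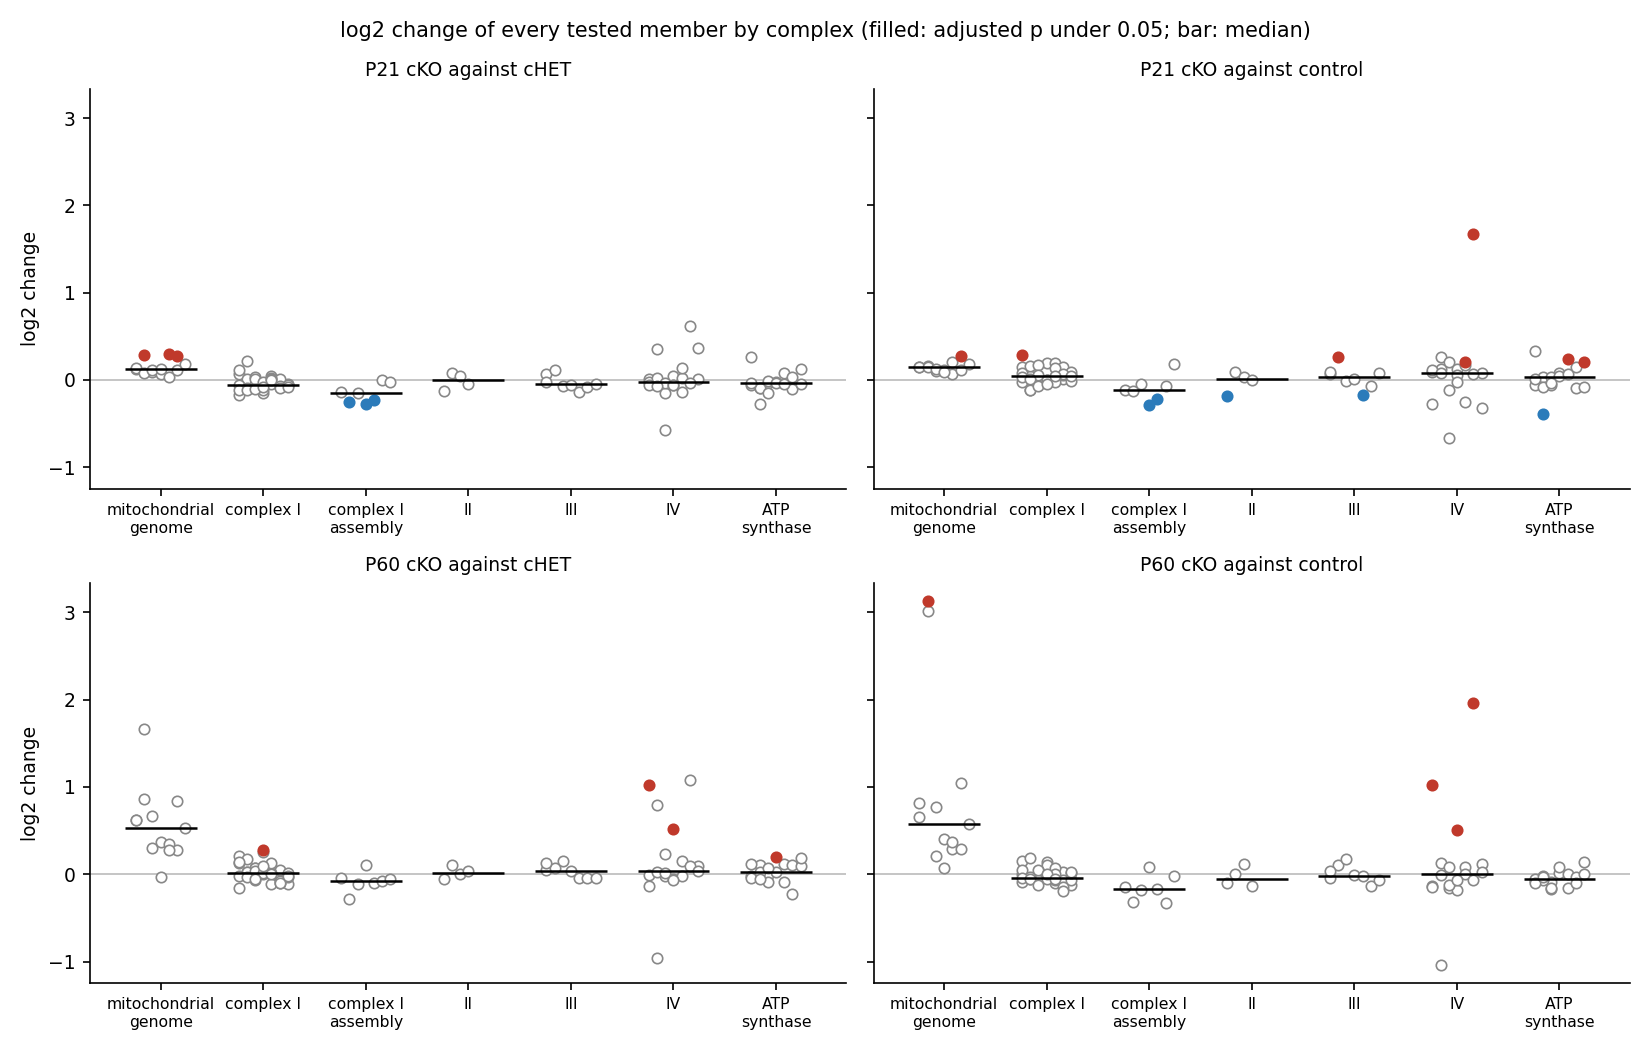
Log2 change of every tested member by complex in the 4 comparisons of the cKO. Points are genes, filled where called by limma, and bars are the median of the complex. Nuclear complexes center near 0 with medians of the structural subunits between -0.04 and 0.04, whereas the mitochondrial genome has medians of 0.12 and 0.14 at P21 and 0.53 and 0.58 at P60.

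The genotype effect differed between the ages in 2 members. In the cKO against the control these were mt-Nd3 and Cox6b2, where 4.48% of 16570 genes were called. Against the cHET no member was called (limma, 7 at an unadjusted p under 0.05), where 3.2% of all genes were.

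Other mitochondrial genes were counted from lists in the P21 cKO against cHET, where 12.6% of all genes tested were called higher and 9.97% lower, and then in the P60 cKO against cHET, where 13.4% were higher and 11.5% lower. Of 43 electron carriers and assembly genes outside the naming rule 3 fell at P21, among them Sdhaf3 (-0.40), an assembly factor of complex II, and Lyrm7 (-0.44), one of complex III, and at P60 2 rose, Coa5 (0.33) and Coa4 (0.55), assembly factors of complex IV. Of 11 genes of ubiquinone synthesis 1 rose at both ages, Coq8b (0.34 and 0.55). Of 27 genes of mitochondrial DNA and RNA handling Hsd17b10 (0.47), a part of mitochondrial RNase P, rose and Fastkd1 (-0.25) fell at P21, and none was called at P60 (limma, 3 at an unadjusted p under 0.05). Of 80 genes of the mitochondrial ribosome 2 rose and 1 fell at P21, Mrps6 (0.36) and Mrpl58 (-0.22) among them, and at P60 8 rose and 1 fell, Mrps22 (0.27) and Mrpl18 (-0.51) among them.

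The ribosomal counts are below those shares. Genes that control or feed the chain were counted in the same comparisons, against the same shares. Of 15 regulators of mitochondrial biogenesis 2 rose and 1 fell at P21 and 3 rose and 1 fell at P60. Nfe2l2, a regulator of the oxidative stress response, rose by 0.52 and 0.68, and Ppargc1a, a coactivator of respiratory genes, fell by 0.36 at P60. Of 17 genes of the citric acid cycle 2 rose and 4 fell at P21, Idh2 (0.30) and Sucla2 (-0.21) among them, and 0 were called at P60 (limma, 1 at an unadjusted p under 0.05). Of 23 genes of glycolysis and lactate transport 4 rose and 2 fell at P21 and 5 rose at P60: the hexokinase Hk2 rose by 1.84 (limma, adjusted p = 4.72e-06) at P21 and lactate dehydrogenase Ldha by 0.54 at P60. Of 13 genes of mitochondrial protein quality control and stress none was called at P21 (limma, 3 at an unadjusted p under 0.05). Of 12 tested at P60 1 rose, the stress-induced cytokine Gdf15, which was 31.1, 24.4 and 23.1 in the cKO, 0, 1.10 and 1.19 in the cHET and listed at 0 in every control.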

How the data were processed

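RNA-seq of spinal cord from 21 mice was deposited as 1 table of per-library values and 6 tables of the authors' comparisons. Per the labels the deposited signal is reads per base of a gene, scaled and normalized by the authors. Their comparison tables give, per the file headers, changes and standard errors in natural log units (value + 0.5; divided here by the natural log of 2). The same deposited tables list p-values and q-values. The submitters' processing notes name kallisto 0.43.0, sleuth 0.28.1 and GRCm38. Which tool did what, and the annotation release, is not given in the sources used here. Read counts behind the values are unknown, so no counting interval is given.

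Groups were taken from the labels. Genes were tested where they reached 5 in at least 4 libraries (P21) or 3 (P60), in limma 3.58.1 (R 4.3.3) with a trended prior on log2(value + 0.5), 2-sided, all 3 genotypes of an age fitted together; this understates changes of low genes. The age difference is the interaction over all 21 libraries. The model was tested on simulated data only for the cKO against the cHET at each age. Sums, ratios and sequences were computed with python 3.11.15, pandas 2.3.3 and numpy 2.4.6. Base composition and length are those of GENCODE M21. For 7 members (Ndufaf2, Ndufa12, Ndufv2, Cox5b, Atp5o, Ndufs4 and Cox6c) the per-library values do not give the mean in the authors' tables.

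The members, lists and tests were chosen with earlier results of these data known. Named were Tardbp, all mitochondrial genes, the isoform pairs, every member called in any comparison and up to 2 genes with the smallest p of each other list. Replicate numbers follow accession order and pair nothing. Alternatives were a pseudocount of 5, no filter, a mean of at least 50, other scalings, the authors' q-values, fits of only the 2 groups compared, sex as a covariate and leaving out each library.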

Additional observations from a re-analysis of the deposited data

Results flagged for a closer look

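In 123 sets of 4 P21 libraries (1 measure in 1 group), 11 had a highest or lowest library that stood apart by Dixon's criterion, and chance gives such a library in about 1 of 20 sets. Of these, 6 belong to cHET 4, which had the highest mitochondrial share of its group (7.53%) and the highest mt-Atp6 (229641), mt-Co1 (625852), mt-Co2 (186192), mt-Co3 (257117) and mt-Cytb (251422). Of the others, 3 belong to cKO 4, with the highest Cox4i1 (14614), Cox6b1 (2872) and Ndufa4 (7376) of its group. The lowest mt-Nd4 of the cKO was that of cKO 1 (166487). Cox6b1 of control 1 was 2585, apart from the other controls. The values of 1 library are not independent of each other.

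The difference between cKO and control differed between the ages by 2.97 (log2) for mt-Nd3 and by 1.3 for Cox6b2 in the test of that difference. Age, kit, sex and age in days cannot be told apart there.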

How the results depend on the processing

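Counts of members called moved by over 1.5 times under few settings other than leaving out a library. Without a filter 2 members were called between P21 cKO and cHET (6 with it). Quantile normalization gave 8 between P60 cKO and control (4 without) and 1 for the age difference of cKO and cHET (0 without), and turned mt-Nd5 to -0.027 in the P21 cKO against the cHET. A mean of at least 50 gave 1 for the age difference of cKO and control (2 without). As a difference of mean log2 values, the P60 ratio of the 2 genomes was 0.90 higher in the cKO than in the control (0.48 as a ratio of sums). There mt-Nd3 and mt-Atp8 had the largest changes of the mitochondrial genes, and both were lowest in P60 control 2. Leaving out 1 library gave 1 to 12 calls for P21 cKO against cHET, 5 to 16 for cKO against control and 0 to 1 for cHET against control. At P60 it gave 1 to 9, 3 to 13 and 0, and for the age differences 0 to 3 (against cHET) and 1 to 3 (against control). The log2 ratio then ran from 0.13 to 0.19, 0.05 to 0.12 and -0.11 to -0.04 at P21 and from 0.26 to 0.61, 0.28 to 0.69 and -0.13 to 0.30 at P60. Counts moved by over 1.5 times without P21 cHET 1, 2 or 3 (2 each), cKO 2 (1) or cKO 4 (12) against the cHET, without P21 control 1 (7), 2 (6), 3 (5) or 4 (7), cKO 2 (7) or cKO 3 (7) against the control, without P60 cHET 2 (2), cHET 3 (9) or cKO 2 (1) against the cHET, and without P60 control 1 (13) or cHET 3 (7) against the control. Without P21 cHET 4, Cox6a2 was called between cHET and control. The age difference against the cHET gave 3 without P21 cKO 4 and 1 without P60 cHET 1, cHET 3 or cKO 2, and that against the control gave 1 without P21 control 4, P21 cKO 2, P60 control 2 or P60 cKO 1. The shares of all genes called with 1 library left out are not given. No alternative ended the calls of Ndufa7 and Ndufaf4 (P21 cKO against control), Cox6a2 (against control, both ages), Cox5b (P60) and mt-Nd3 (P60 against control, and its age difference). The causes were not tested. No paired analysis was possible because the labels number no replicates. With 3 or 4 libraries a group, P60 changes of mitochondrial genes with SEs up to 1.53 were not detectable unless large.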
